A study of Rattus norvegicus with 174 samples.

Results

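The plasma membrane carriers that move amino acids into and out of cells belong to a few gene families, and 51 of the 13438 genes measured here were taken from them by symbol: those beginning with Slc1a, Slc3a, Slc6a, Slc7a, Slc36a, Slc38a or Slc43a. By family they are 6 Slc1, 2 Slc3, 16 Slc6, 14 Slc7, 3 Slc36, 8 Slc38 and 2 Slc43 genes, read by 67 probe sets of the array. The choice used symbols and no measured value, but was made with earlier results of these data known. For the 10 genes with several probe sets, the one brightest by its mean over all arrays was used. One symbol of the Slc7 family, Slc7a12, shares its probe set with another gene and was left out. One gene taken, Slc7a6os, is the neighbour of Slc7a6 on the opposite strand and no carrier, which leaves 50 carriers and heavy chains. All 51 were tested, with no filter on dim genes.

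The study exposed adult male Sprague-Dawley rats, an outbred stock, by inhalation to phosphine (PH3), a fumigant gas that poisons mitochondria, to characterise its toxicity from the transcriptome. Whole-body exposure was to 660 ppm over 32.2 min (21252 ppm x min, given by the submitters as 0.91 times the LCt50, the median lethal product of concentration and time), and control rats breathed air, 0 ppm. From 33 rats, killed 1, 3, 6 or 24 h later, 174 arrays were made: 30 each of brain, heart, kidney, liver and lung and 24 of blood, which was drawn by heart stick. In each solid tissue 4 exposed and 4 air rats were compared at 1, 3 and 24 h, and 4 exposed with 2 air rats at 6 h. For blood these numbers were 4 and 4 at 1 and 3 h and 5 and 1 at 6 h, while 24 h blood is from 2 exposed rats alone. Of the 33 rats 30 gave all 5 solid tissues and 3 gave blood only, and the labels name no other treatment. Whole tissues were read, so fewer cells of a type and less RNA per cell cannot be told apart in any value below.

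Amino acids enter cells against or along their gradients through carriers with different ion couplings. Slc7 light chains such as Slc7a5, which takes up leucine and other large neutral amino acids, work only when joined to a heavy chain, Slc3a2 or Slc3a1, that brings them to the membrane. Slc7a1 works alone and takes up arginine, lysine and ornithine. Slc1 carriers take up glutamate or small neutral amino acids, Slc38 carriers take up glutamine and alanine with sodium, and Slc6 carriers take up neurotransmitters, taurine, creatine and neutral amino acids. When amino acids are short or a cell is stressed, the transcription factor ATF4 is made and binds C/EBP-ATF response elements, and Slc7a1, Slc7a5, Slc3a2 and Slc38a2 are known targets of that response in mammalian cells.

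The start-site windows of 4 members that rose are printed because the question of such an element bears on them. Slc7a1, Slc7a5 and Slc3a2 were called higher in 2 or more comparisons. Slc38a1, called higher in 1, was added outside that rule and is 1 of the 3 members with a match. Windows of the other members called higher once are not printed. They run from 250 bases before to 50 bases after a RefSeq transcript start on the assembly GRCr8, 5′ to 3′ on the strand of the gene, and capitals mark a match to the response element TGATGNAA, searched on both strands. Slc7a1 is at chr12:11664238-11664537 (+), Slc38a1 at chr7:129681352-129681651 (-), Slc7a5 at chr19:66872363-66872662 (-) and Slc3a2 at chr1:215048015-215048314 (-).
Slc7a1: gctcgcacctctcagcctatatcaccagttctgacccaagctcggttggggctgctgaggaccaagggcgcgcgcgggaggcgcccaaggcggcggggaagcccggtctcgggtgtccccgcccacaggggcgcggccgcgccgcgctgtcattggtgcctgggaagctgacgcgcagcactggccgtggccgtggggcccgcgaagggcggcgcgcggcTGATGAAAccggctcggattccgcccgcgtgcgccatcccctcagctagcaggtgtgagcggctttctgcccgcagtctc
Slc38a1: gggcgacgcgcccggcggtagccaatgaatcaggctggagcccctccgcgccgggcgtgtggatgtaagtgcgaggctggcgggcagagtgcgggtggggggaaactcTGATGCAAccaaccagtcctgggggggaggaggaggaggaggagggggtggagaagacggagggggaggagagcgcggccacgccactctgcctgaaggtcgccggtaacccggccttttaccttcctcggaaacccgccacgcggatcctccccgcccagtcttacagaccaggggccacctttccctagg
Slc7a5: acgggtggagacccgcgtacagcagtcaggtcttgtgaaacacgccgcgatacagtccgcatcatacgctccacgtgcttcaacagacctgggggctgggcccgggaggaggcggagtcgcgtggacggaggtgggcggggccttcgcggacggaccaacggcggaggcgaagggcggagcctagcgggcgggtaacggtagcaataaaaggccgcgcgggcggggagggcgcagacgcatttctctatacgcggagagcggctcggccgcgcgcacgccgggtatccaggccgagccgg
Slc3a2: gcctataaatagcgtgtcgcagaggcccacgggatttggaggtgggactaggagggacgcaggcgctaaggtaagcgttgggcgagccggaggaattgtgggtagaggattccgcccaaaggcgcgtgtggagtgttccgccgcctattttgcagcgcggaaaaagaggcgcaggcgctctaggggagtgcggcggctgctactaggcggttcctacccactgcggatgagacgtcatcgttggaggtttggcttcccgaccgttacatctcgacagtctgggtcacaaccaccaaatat
The window of Slc7a1 held TGATGAAA, beginning 30 bases before the start. That of Slc38a1 held TGATGCAA, beginning 142 bases before a start that lies 326 bases inside the outer end of the gene. Of the 39 members found in the RefSeq table, 3 held the motif, Slc7a1, Slc38a1 and Slc1a4 (7.69%). Of all 33469 RefSeq windows 1332 did (3.98%). Members were taken with 1 window each. The full set was not cut to 1 window a gene or to the genes measured here, so the 2 shares are from unlike sets. The windows of Slc7a5 and Slc3a2 held no match, which says only that these letters are not in these 300 bases. The window of Slc7a6 starts 11047 bases inside the gene and is not printed.

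In air-breathing rats the levels of the carriers differed by tissue. By the median log2 signal of the air rats, and comparing each gene only with itself, 16 members were highest in brain, 11 in kidney, 11 in blood, 6 in liver, 4 in lung and 3 in heart. The air rats' signals in the top tissue and in the tissue next in order did not overlap for 10 of the 16 brain members, 10 of the 11 kidney members, 4 in blood, 3 in liver and 1 in lung. The same was not counted over all genes, so these numbers describe the members and do not set them apart. In 3 members, Slc36a2, Slc36a3 and Slc6a5, no tissue's air median reached the median of all probe sets, 4.41.

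Several of the kidney members are carriers known from tubular reabsorption. The heavy chain Slc3a1 had a median log2 signal of 13.23 in kidney and 7.68 in brain, the next tissue. Its light chain Slc7a9, the cystine carrier, stood at 9.99 in kidney and 2.87 in blood, and Slc7a13 at 12.46 in kidney and 3.10 in lung. Slc7a7, which exports arginine and lysine from epithelial cells, was at 10.25 in kidney and 6.67 in lung, and the neutral carrier Slc6a18 at 9.64 in kidney and 3.97 in blood. Among brain members, the astrocyte glutamate carrier Slc1a3 stood at 11.20 (lung 7.14), the neutral carrier Slc6a15 at 8.96 (blood 3.33) and the cystine-glutamate exchanger Slc7a11 at 7.57 (blood 3.94). The liver member with the widest gap was the sodium-coupled Slc38a4, at 11.28 against 3.65 in heart. In lung Slc6a14, a broad neutral and cationic carrier, stood at 7.57 against 2.67 in blood.

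The 4 genes most often called higher after phosphine had these air levels. Slc7a1 had air medians of 7.50 in brain, 5.93 in heart, 5.65 in lung, 5.27 in kidney, 4.37 in blood and 3.79 in liver, and its ranges in heart, lung and kidney overlapped. Slc7a6 was at 6.48 in lung, 6.33 in heart, 6.08 in blood, 5.91 in brain, 5.10 in kidney and 3.84 in liver. Slc3a2 varied least of these, from 8.58 in heart to 10.67 in blood, with lung at 10.08 and kidney at 10.42. Slc7a5 was high in blood (8.64) and brain (6.99) and lay between 4.50 in heart and 4.87 in lung elsewhere.

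**Figure D1:**
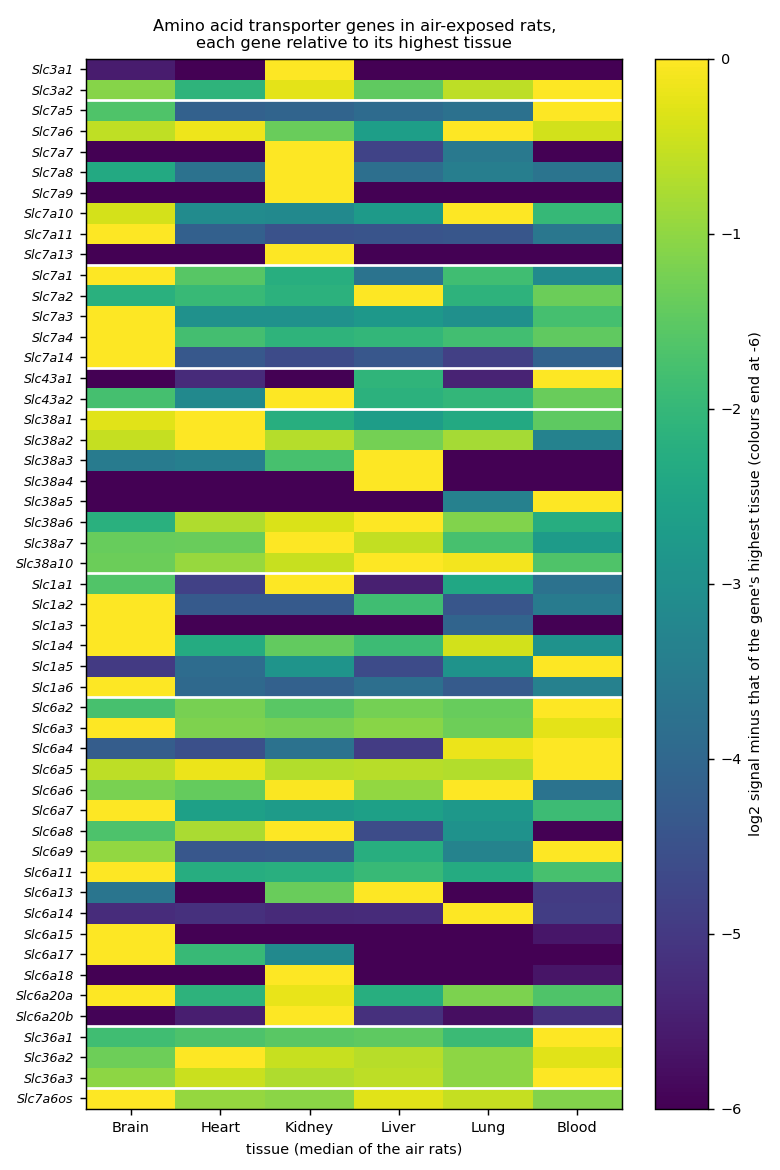
Median log2 signal of the 51 genes in air-exposed rats, by tissue (columns), each gene (row, grouped by family role) drawn as its difference from its own highest tissue, so yellow is that tissue and dark blue is 6 log2 units or more below it. Slc3a1, Slc7a9 and Slc7a13 stand out in kidney, Slc38a4 in liver, Slc6a14 in lung and Slc1a3 and Slc6a15 in brain.

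Before the responses, the arrays were checked against their tissue. The marker lists of each solid tissue's own cells were higher on each of its arrays than on any array of another solid tissue. On 11 arrays the mean of another organ's markers, or of skeletal muscle's, exceeded the tissue median by 4 log2 or more, and leaving them out is one of the alternatives given beside the results. The arrays that touch a call were the hearts of exposed Rat712 at 1 h and Rat729 at 3 h (hepatocyte genes), the kidney of air Rat720 at 1 h (hepatocyte genes), the lung of exposed Rat716 at 1 h (hepatocyte genes) and the lungs of exposed Rat729 and air Rat733 at 3 h (skeletal muscle genes). Comparisons below are log2 phosphine minus air ± the standard error of a limma fit, so 1 is a 2-fold difference, with p-values adjusted by Benjamini-Hochberg over all 13438 genes and a gene called at an adjusted p under 0.05.

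Across 23 comparisons of a tissue and time, 28 calls fell on 15 members, 22 of them higher and 6 lower after phosphine, and 36 members were never called. The calls lay in 7 comparisons: lung, kidney and heart at 1 and 3 h, and liver at 6 h. Of the 28 calls, 27 were at 1 or 3 h. Slc7a1 was higher in 6 comparisons, Slc7a5 and Slc7a6 in 4 each and Slc3a2 in 2, so these 4 genes made 16 of the calls. By role, all 18 calls of the Slc7 and Slc3 genes were rises (10 of light chains, 6 of the cationic carrier Slc7a1, 2 of the heavy chain Slc3a2), while all 3 calls of Slc1 carriers were falls. In 22 of the 28 (78.6%) the exposed and air rats did not overlap, against 3658 of the 4273 calls of all genes in the same 7 comparisons (85.6%), and 5 were at least 2-fold. With only the 2 groups of a comparison in the fit, in place of all arrays of the tissue, 15 of the 28 calls ended: all 7 in heart, all 3 in kidney at 1 h, the liver call, Slc1a1 in kidney at 3 h, Slc7a5 and Slc7a6 in lung at 1 h and Slc6a20a in lung at 3 h.

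**Figure D2:**
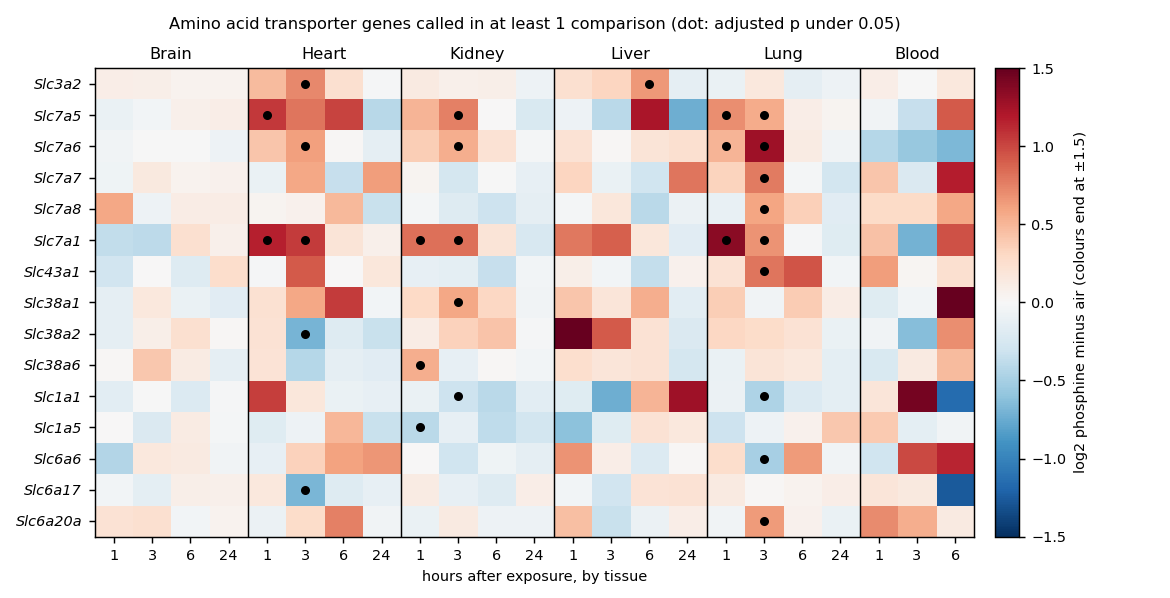
Log2 phosphine minus air (colour, red higher and blue lower) of the 15 members called at least once, over the 23 comparisons by tissue and hours after exposure, with a dot where the adjusted p was under 0.05. Slc7a1 has dots in heart, kidney and lung at both 1 and 3 h, Slc7a5 and Slc7a6 in 4 of these 6 comparisons each, and brain and blood have none.

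Set against all genes, the members were called at these rates. In lung at 3 h 9 of 51 were called (17.6%, all genes 11.6%), 7 higher (all genes 5.84%) and 2 lower (5.76%). In lung at 1 h 3 were higher and 0 lower (all genes 5.8% called, 2.18% higher). In kidney at 1 h 2 were higher and 1 lower (all genes 3.12% called, 2.12% higher, 0.997% lower), and at 3 h 4 higher and 1 lower (6.39%, 2.86% and 3.53%). In heart at 1 h 2 were higher (1.33% called, 0.99% higher), and at 3 h 3 higher and 2 lower (3.33%, 1.06% and 2.28%). In liver at 6 h 1 was higher (0.223% called, 0.164% higher). The median log2 difference of the 51 was 0.03 in lung at 3 h (0.01 over all genes), -0.04 in kidney at 3 h (-0.01) and 0.06 in heart at 3 h (-0.02), each within 0.1 of the median over all genes.

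The arginine, lysine and ornithine carrier Slc7a1 gave the largest rise of any member called at 1 h. In lung at 1 h the exposed rats had log2 signals of 6.53, 6.71, 7.02 and 7.17 and the air rats 5.05, 5.58, 5.65 and 5.73. Every exposed lung lay above every air lung, by 1.36 ± 0.15 on average (2.56-fold, adjusted p = 3.23e-06). At 3 h the exposed lungs had 5.93, 6.26, 6.27 and 6.66 against 5.41, 5.65, 5.65 and 5.75 in air, a difference of 0.67 ± 0.15 (adjusted p = 0.00487), again without overlap. By 6 h the difference in lung was -0.02 ± 0.19 and at 24 h it was -0.18 ± 0.15.

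Slc7a1 rose in kidney at both early times. At 1 h exposed kidneys had 5.59, 5.77, 5.92 and 5.92 and air kidneys 4.76, 4.78, 5.03 and 5.33 (0.82 ± 0.15, adjusted p = 0.00174). At 3 h exposed kidneys had 5.77, 6.09, 6.20 and 6.50 and air kidneys 5.13, 5.29, 5.39 and 5.44 (0.83 ± 0.15, adjusted p = 9.04e-04). The groups were apart at both times, and at 6 and 24 h the differences were 0.19 ± 0.18 and -0.24 ± 0.15. With the kidney of Rat720 and the other arrays of foreign transcripts left out, the 1 h rise was 0.76 (adjusted p = 0.0112).

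In heart at 1 h Slc7a1 was at 6.06, 6.86, 7.07 and 7.11 in exposed rats and at 5.09, 5.28, 5.67 and 6.40 in air rats. One air heart, that of Rat727, lay above the lowest exposed heart, and the mean difference was 1.17 ± 0.27 (2.24-fold, adjusted p = 0.0285). At 3 h exposed hearts had 6.63, 7.08, 7.10 and 7.77 against 5.62, 6.09, 6.35 and 6.35 in air, with no overlap (1.04 ± 0.27, 2.06-fold, adjusted p = 0.0321). Both heart calls ended without the hearts that carried hepatocyte or alveolar transcripts, where the differences were 1.07 (adjusted p = 0.122) and 1.06 (adjusted p = 0.0856). They also ended without single rats: at 1 h without Rat712, Rat716, Rat719, Rat720, Rat721 or Rat726 (up to adjusted p = 0.128), and at 3 h without any of 7 of the 8 rats, all but Rat728 (up to 0.119).

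Elsewhere Slc7a1 was not called. In liver at 3 h exposed rats had 4.17, 4.57, 4.80 and 5.01 against 3.66, 3.68, 3.75 and 3.86 in air, a difference of 0.90 ± 0.29 without overlap that missed the threshold (adjusted p = 0.0835). In brain at 3 h the exposed rats, at 7.14, 7.15, 7.29 and 7.32, lay below the air rats, at 7.47, 7.59, 7.63 and 7.77 (-0.39 ± 0.15, adjusted p = 0.444). The gene has 3 probe sets. Another moved with the one used, by 1.24 and 1.15 in heart, 0.50 and 0.63 in kidney and 0.85 and 0.50 in lung at 1 and 3 h. The remaining one differed by 0.02 to 0.31 in these 6 comparisons. Averaging the 3 left every call of the gene in place, with smaller differences of 0.74 and 0.40 in lung and 0.46 and 0.51 in kidney at 1 and 3 h.

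The plot of values by rat shows the 4 genes most often called higher side by side.

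**Figure D3:**
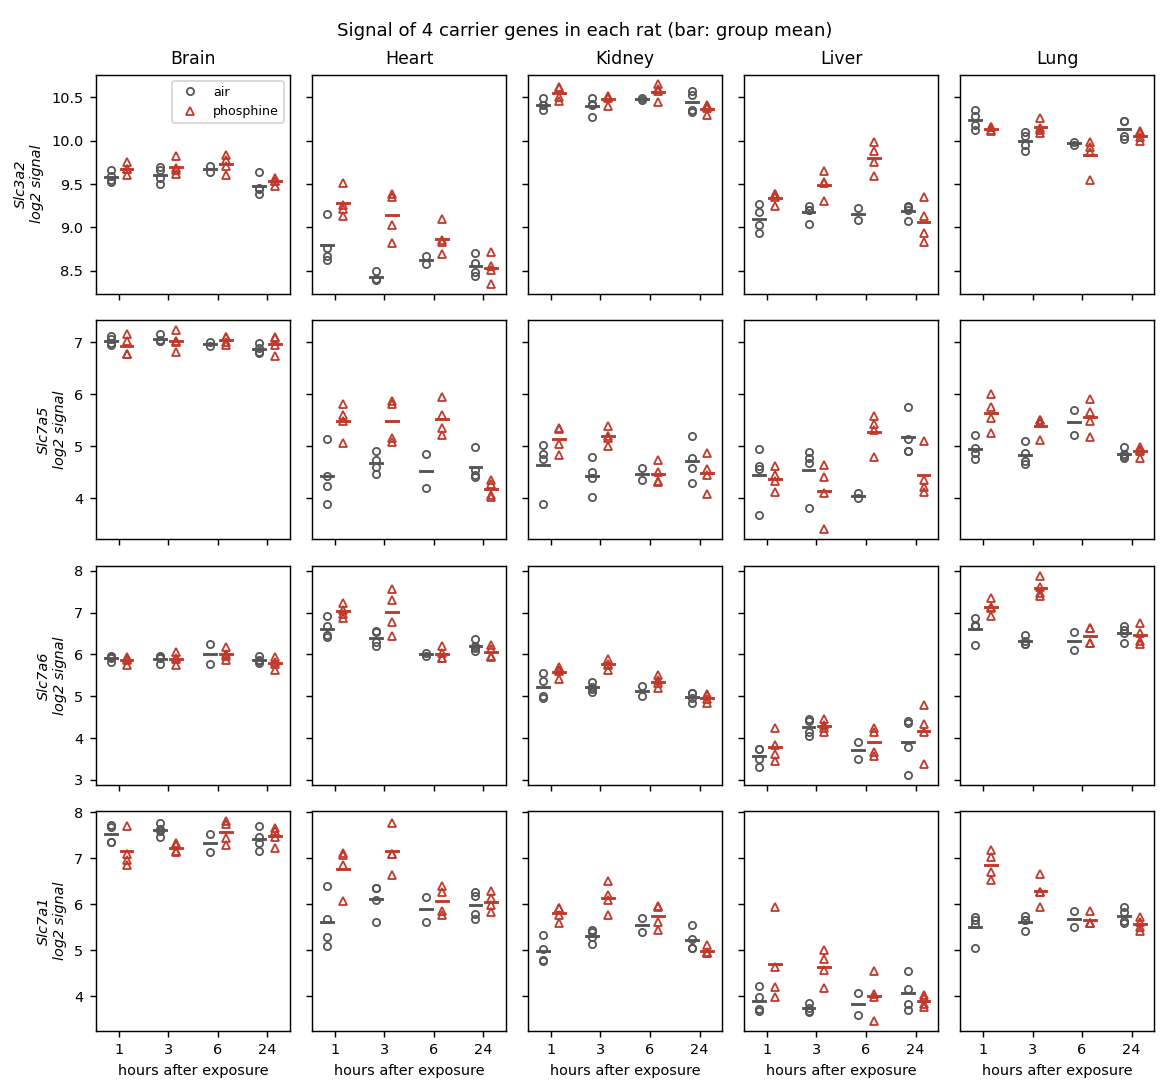
Log2 signal (vertical axes, shared within a row) of Slc3a2, Slc7a5, Slc7a6 and Slc7a1 in each rat, by solid tissue (columns) and hours after exposure, with open circles for air, open triangles for phosphine and bars for group means. The exposed lungs of Slc7a6 at 3 h, from 7.40 to 7.88, stand above the air lungs, from 6.25 to 6.46, while in brain at 3 h the exposed rats lie below the air rats for Slc7a1.

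Slc7a6, the light chain that exchanges arginine and lysine for neutral amino acids with sodium, gave the lowest adjusted p of any member. In lung at 3 h exposed rats had 7.40, 7.47, 7.61 and 7.88 and air rats 6.25, 6.26, 6.31 and 6.46. The gap between the groups was wider than either group, and the difference was 1.27 ± 0.14 (2.41-fold, adjusted p = 3e-06). At 1 h exposed lungs had 6.92, 7.11, 7.13 and 7.36 and air lungs 6.22, 6.67, 6.70 and 6.87 (0.51 ± 0.14, adjusted p = 0.0321). That call ended when Rat710, Rat712, Rat719, Rat720, Rat721 or Rat726 was left out (up to adjusted p = 0.132).

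In kidney at 3 h Slc7a6 was at 5.62, 5.75, 5.78 and 5.89 in exposed and 5.11, 5.17, 5.22 and 5.34 in air rats (0.55 ± 0.11, adjusted p = 0.00192), with no overlap. In heart at 3 h the exposed rats had 6.43, 6.77, 7.29 and 7.56 and the air rats 6.19, 6.29, 6.54 and 6.57. The heart groups overlapped through exposed Rat729, the heart with hepatocyte transcripts, and the difference was 0.61 ± 0.17 (adjusted p = 0.0393). Without the arrays of foreign transcripts it was 0.81 (adjusted p = 0.00769), while without Rat730, Rat731 or any 1 air rat the call was lost (up to 0.145). It was lost too with arrays centred on their medians (adjusted p = 0.0737) or quantile normalized within the tissue (0.0623). Slc7a6os, the neighbour on the other strand, differed by -0.05 ± 0.10 in lung, 0.22 ± 0.11 in kidney and 0.21 ± 0.14 in heart at 3 h, none of them called.

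Slc7a5, the leucine and large neutral amino acid light chain, rose in lung, kidney and heart. In heart at 1 h exposed rats had 5.06, 5.49, 5.60 and 5.81 and air rats 3.88, 4.23, 4.43 and 5.14. Exposed Rat716 lay below air Rat727, the one overlap, and the difference was 1.07 ± 0.23 (2.09-fold, adjusted p = 0.0187). It was 0.96 (adjusted p = 0.0715) without the heart of Rat712 and the other arrays of foreign transcripts, and the call also ended without Rat712, Rat719, Rat720, Rat721 or Rat726 alone (up to 0.0917). In heart at 3 h the difference was 0.80 ± 0.23 (adjusted p = 0.0572) and at 6 h 1.01 ± 0.28, both without overlap and neither called.

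In lung at 1 h Slc7a5 was at 5.26, 5.55, 5.76 and 6.01 in exposed and 4.75, 4.87, 4.96 and 5.21 in air rats (0.69 ± 0.15, adjusted p = 0.00555). At 3 h exposed lungs had 5.11, 5.44, 5.50 and 5.51 and air lungs 4.65, 4.71, 4.87 and 5.09 (0.56 ± 0.15, adjusted p = 0.0181). No exposed lung overlapped an air lung at either time, although at 3 h exposed Rat729 and air Rat739 were 0.02 apart by the rounded values. The 3 h call ended without Rat730 or Rat733 (up to adjusted p = 0.0615) and with air of all times pooled (0.0502). In kidney at 3 h exposed rats had 5.01, 5.15, 5.20 and 5.38 and air rats 4.02, 4.39, 4.50 and 4.79, apart from each other (0.76 ± 0.21, adjusted p = 0.0293). This call ended without Rat729, Rat730, Rat731, Rat733, Rat738 or Rat739 (up to 0.116).

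The heavy chain Slc3a2, partner of these light chains, rose in heart and liver but was not called in lung. In heart at 3 h exposed rats had 8.82, 9.03, 9.35 and 9.39 and air rats 8.39, 8.41, 8.41 and 8.50. The groups were apart, by 0.72 ± 0.13 (adjusted p = 0.00261), and the call held without each rat and without the arrays of foreign transcripts (0.65, adjusted p = 0.015). In liver at 6 h 4 exposed rats had 9.59, 9.75, 9.88 and 9.99 and 2 air rats 9.08 and 9.22 (0.65 ± 0.13, adjusted p = 0.0292). The liver call was lost without Rat760, Rat761, Rat789 or either air rat, Rat762 or Rat763 (up to adjusted p = 0.361), and with arrays centred on their medians (0.0793). In lung, where Slc7a5, Slc7a6, Slc7a7 and Slc7a8 rose, Slc3a2 differed by -0.10 ± 0.08 at 1 h and 0.16 ± 0.08 at 3 h. The heavy chain Slc3a1, highest in kidney, differed by -0.06 to 0.06 there over the 4 times.

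In lung at 3 h the light chains Slc7a7 and Slc7a8 rose as well. Slc7a7 was at 6.81, 7.04, 7.27 and 7.33 in exposed and 6.24, 6.26, 6.29 and 6.53 in air rats (0.78 ± 0.16, adjusted p = 0.00151), and Slc7a8, a carrier of neutral amino acids, differed by 0.59 ± 0.15 (adjusted p = 0.0112), both without overlap. With air of all times pooled Slc7a7 was 0.43 higher (adjusted p = 0.07), and the call of Slc7a8 ended without Rat730 (adjusted p = 0.0641). The other light chains, Slc7a9, Slc7a10, Slc7a11 and Slc7a13, were not called in any comparison. Slc7a11, which imports cystine for glutathione synthesis, differed by 0.10 ± 0.18 at 1 h and 0.06 ± 0.18 at 3 h in lung. The remaining cationic Slc7 genes, Slc7a2, Slc7a3, Slc7a4 and Slc7a14, had no call either.

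Slc43a1, a facilitator of branched-chain amino acids, rose in lung at 3 h by 0.81 ± 0.20 (adjusted p = 0.0105), from 4.65, 4.88, 5.21 and 5.24 in air to 5.63, 5.65, 5.88 and 6.06 in exposed rats. At 6 h it differed by 0.94 ± 0.25 without overlap and without a call. The other member of its family, Slc43a2, was not called in any comparison.

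**Figure D4:**
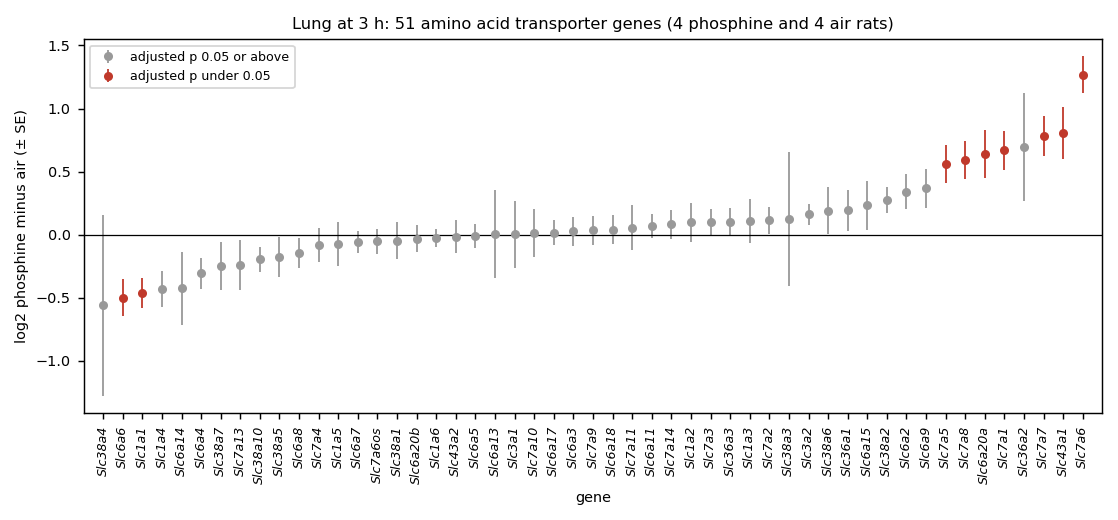
Log2 phosphine minus air ± SE of all 51 genes in lung at 3 h, in order of the difference, with the 9 called genes in red (4 exposed and 4 air rats). Slc7a6 is at the top with 1.27, the 7 rises include 4 light chains, and Slc6a6 and Slc1a1 are the 2 falls.

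Lung at 3 h also held changes in cell type markers, whose part in the carriers' calls was not tested. Over all genes 5.84% were called higher there and 5.76% lower. Among neutrophil markers 3 of 5 were higher (mean level of the list 5.99 to 6.66 in exposed and 5.07 to 5.65 in air lungs), and 4 of 6 macrophage markers were higher with 1 lower (6.96 to 7.06 against 6.56 to 6.92). Of the endothelial markers 1 of 5 was higher and 2 were lower (10.11 to 10.52 against 10.45 to 10.53), and 2 of 5 alveolar type 2 markers were higher. None of the 3 measured erythroid markers was called, but the mean of that list lay at 6.48 to 6.80 in exposed and 5.82 to 6.44 in air lungs, apart. Among the lung rises, Slc43a1 and Slc7a5 are genes whose air level was highest in blood. The rest of the 11 members highest in blood were not called in lung. Of the 11, 4 had air signals in blood that did not overlap those of the next tissue. The part of blood in the lung values was not tested. At 1 h 1 neutrophil marker was higher (5.74 to 6.58 against 5.25 to 5.70) and 1 erythroid marker was (5.86 to 6.45 against 5.27 to 6.04), where 2.18% of all genes were higher. Without the lungs of Rat716, Rat729 and Rat733 all 12 lung calls held, with Slc7a6 at 1.31 and Slc7a7 at 0.78 at 3 h.

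Of 8 Slc38 carriers 3 were called, 2 higher in kidney and 1 lower in heart. Slc38a6 gave the lowest adjusted p of the members in kidney at 1 h: exposed rats had 5.73, 5.76, 5.76 and 5.98 and air rats 5.17, 5.21, 5.29 and 5.39. Without overlap it was 0.55 ± 0.09 higher (adjusted p = 7.16e-04), and at 3 h it differed by -0.12 ± 0.09. With air of all times pooled the 1 h rise was 0.35 (adjusted p = 0.0122). Slc38a1, a sodium-coupled glutamine carrier, rose in kidney at 3 h by 0.58 ± 0.12 (adjusted p = 0.00353), from 3.81, 3.94, 3.94 and 4.12 in air to 4.27, 4.46, 4.65 and 4.73.

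Slc38a2, a glutamine and alanine carrier that cells raise when amino acids are withdrawn, fell in heart at 3 h and stood higher in liver. Exposed hearts had 8.94, 9.13, 9.21 and 9.97 and air hearts 9.81, 9.96, 10.05 and 10.23. Exposed Rat728 lay among the air rats, and the difference was -0.70 ± 0.16 (adjusted p = 0.0169). It was -0.58 (adjusted p = 0.099) without the heart of Rat729 and the other arrays of foreign transcripts, and the call also ended without Rat729, Rat730, Rat731 or Rat738 alone (up to 0.0763). In liver at 1 h exposed rats had 9.66, 10.00, 10.41 and 10.85 and air rats 8.49, 8.64, 8.72 and 8.83, a gap without overlap of 1.56 ± 0.39 that was not called (adjusted p = 0.0947). The liver array with 10.85, that of Rat719, carried skeletal muscle transcripts.

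Of the Slc1 carriers, Slc1a1, a carrier of glutamate and cysteine, was lower in 2 comparisons. In lung at 3 h exposed rats had 6.28, 6.60, 6.71 and 6.79 and air rats 6.88, 7.05, 7.11 and 7.20 (-0.46 ± 0.12, adjusted p = 0.0136), and the call ended without Rat730 (0.076). In kidney at 3 h exposed rats had 8.97, 9.15, 9.18 and 9.31 and air rats 9.40, 9.45, 9.47 and 9.51. The kidney groups were apart, with a difference of -0.31 ± 0.09 close to the threshold (adjusted p = 0.0489) that was lost without 7 of the 8 rats, all but Rat728 (up to 0.158), and in 5 of 8 other settings. Another probe set of the gene gave -0.34 in lung and -0.23 in kidney. Slc1a5, a neutral carrier of glutamine, fell in kidney at 1 h by 0.41 on the log2 scale (± 0.11, adjusted p = 0.0375), with air Rat727 among the exposed rats, and lost the call without Rat712, Rat716, Rat719, Rat720, Rat721 or Rat726 (up to 0.147), without the arrays of foreign transcripts (0.0981) and against pooled air (0.0513). Slc1a4, a carrier of alanine, serine and cysteine, stood 1.22 ± 0.28 higher in liver at 1 h without overlap and just short of a call (adjusted p = 0.0557).

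Of 16 Slc6 carriers 3 were called, 1 higher and 2 lower. The taurine carrier Slc6a6 fell in lung at 3 h, from 7.63, 7.82, 7.85 and 7.91 in air to 7.14, 7.31, 7.35 and 7.40 in exposed rats (-0.50 ± 0.15, adjusted p = 0.0268). Against air of all times pooled it was -0.27 (adjusted p = 0.265), and the call ended without Rat729, Rat732, Rat738 or Rat739 (up to 0.0768). Slc6a20a, a proline carrier, rose in lung at 3 h by 0.64 ± 0.19 (adjusted p = 0.0306), with 5.52, 5.87, 6.03 and 6.10 in exposed and 4.77, 5.16, 5.42 and 5.62 in air rats, overlapping by exposed Rat729. Its other probe set differed by 0.67 and the one used by 0.26 (adjusted p = 0.402) against pooled air. That call was lost without Rat728, Rat730, Rat731, Rat733 or Rat739 (up to 0.127). Slc6a17, a vesicular carrier of neutral amino acids in neurons, fell in heart at 3 h by 0.69 on the log2 scale (± 0.19, adjusted p = 0.0441). Of its 4 other probe sets 3 gave -0.73, -0.16 and -0.11 and 1 gave 0.13, and the mean of all 5 gave -0.31 (adjusted p = 0.0864). The Slc6a17 call ended against pooled air (adjusted p = 0.0622), without the arrays of foreign transcripts (-0.53, adjusted p = 0.151) and without 7 of the 8 rats, all but Rat728 (up to 0.183). None of the 3 proton-coupled Slc36 carriers was called.

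In heart at 3 h 3 of 6 macrophage markers were higher, against 1.06% of all genes (mean level 6.61 to 7.48 in exposed and 6.28 to 6.51 in air hearts). Hepatocyte markers reached 12.83 on the array of Rat729. In kidney at 3 h 2 of 6 macrophage markers were higher (5.53 to 5.80 against 5.16 to 5.67) and 1 of 5 neutrophil markers was (2.93 to 3.06 against 2.70 to 2.84), where 2.86% of all genes were higher. RNA intactness was read as the log2 signal at the 3' end of control genes less that at their 5' end, which grows as RNA breaks. It was 0.48 to 0.74 in exposed and 0.35 to 0.56 in air hearts at 3 h, 0.51 to 0.72 and 0.61 to 0.71 in kidneys at 3 h and 0.39 to 0.46 and 0.17 to 0.57 in lungs at 3 h. These groups overlapped. In liver at 1 h, where Slc38a2, Slc1a4 and Slc7a2 stood higher without a call, the groups were apart (0.46 to 0.51 in exposed and 0.53 to 0.71 in air livers). They were apart too in brain at 3 h (0.27 to 0.43 and 0.48 to 0.56), where Slc7a1 stood lower and the endothelial list was at 5.94 to 6.22 in exposed and 6.42 to 6.57 in air brains. In liver at 3 h the endothelial list was at 5.94 to 6.59 and 6.62 to 6.89. In liver at 6 h the macrophage list was at 7.87 to 8.06 in exposed and 8.18 to 8.30 in air livers. The T lymphocyte list there was at 3.52 to 3.69 and 3.84 to 3.95, while the neutrophil, B lymphocyte, endothelial and erythroid lists overlapped. The endothelial list was at 8.51 to 8.68 and 8.18 to 8.51 in heart at 1 h and at 7.98 to 8.18 and 7.82 to 8.01 in kidney at 1 h. The part of these in the carriers' differences was not tested.

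In 16 comparisons limma called 0 members. In brain 0 of 51 were called at any time, where all genes had 0.149%, 0.506%, 0% and 0% called at 1, 3, 6 and 24 h. At an unadjusted p under 0.05 there were 4, 4, 0 and 3 members, against 11%, 8.65%, 5.64% and 3.79% of all genes. In blood 0 members were called at 1, 3 and 6 h, against 0.00744%, 6.6% and 0.0521% of all genes. Unadjusted, there were 2 and 4 members in blood at 1 and 3 h, against 7.72% and 22.4% of all genes. Blood at 3 h had 887 called genes and none of the 51 members among them, where the highest difference of a member was 1.47. The 6 h blood comparison has 1 air sample, whose spread is taken from the other blood groups, so its count of 0 says little. In liver 0 were called at 1, 3 and 24 h, against 0.335%, 3.85% and 0% of all genes. Unadjusted, the members numbered 6, 11 and 6, against 6.76%, 15.6% and 7.14% of all genes. At 6 and 24 h heart, kidney and lung had 0 called. All genes had 0.35% and 0.0819% called in heart, 0.35% and 0% in kidney and 0.0967% and 0.00744% in lung. Unadjusted, there were 5 and 5 members in heart (all genes 9.37% and 7.61%), 6 and 5 in kidney (10.1% and 5.5%) and 5 and 1 in lung (8.8% and 3.16%). Among the 36 members never called, differences in solid tissues ran from -1.01, for Slc7a10 in lung at 6 h (adjusted p = 0.0818), to 2.10, for Slc7a13 in liver at 24 h. The latter came from 1 array: the liver of Rat741, which carried nephron transcripts, was at 10.90 and the other 3 exposed livers at 2.65 to 2.97.

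Whether a response differed between the 5 solid tissues was tested directly at each time. At 1 h the test called 6 members (11.8%, all genes 3.27%). At 3 h it called 7 (13.7%), a share near that of all genes (14.4%), so the 3 h values below describe single genes and do not set the carriers apart. At 6 h it called 1 (1.96%, all genes 1.35%) and at 24 h 0 (0.625% of all genes). Slc7a1 differed at 1 h (adjusted p = 2.77e-04) and at 3 h (0.00148), with differences of -0.37 and -0.39 in brain against 0.67 to 1.36 in heart, kidney, liver and lung. Slc7a5 differed at 1 h (0.0204) and 3 h (0.00318), with 1.07 and 0.80 in heart, -0.07 and -0.40 in liver and -0.10 and -0.04 in brain. Slc7a6 differed at 3 h (5.49e-05), from 0.00 in brain and 0.02 in liver to 1.27 in lung. The tissue differences of Slc7a5 at 1 h ended without Rat712, Rat719, Rat720 or Rat721 (up to 0.215) and at 3 h without Rat730 or Rat738 (up to 0.119), while those of Slc7a1 and Slc7a6 held without each rat.

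Slc3a2 differed between tissues at 1 h (adjusted p = 0.017), 3 h (1.11e-04) and 6 h (0.00568), with its highest difference in heart at 1 and 3 h and in liver at 6 h. The 1 h value was lost without Rat710, Rat720 or Rat727 (up to 0.17) and the 6 h value without either air rat, Rat762 or Rat763 (up to 0.323). Slc38a2 differed at 1 h (3.60e-04) and 3 h (0.00107), from 1.56 in liver against -0.13 to 0.31 elsewhere at 1 h to 0.92 in liver against -0.70 in heart at 3 h. Slc7a2, a cationic carrier of hepatocytes, differed at 1 h (0.0167) and 3 h (6.20e-04), with 1.20 ± 0.45 and 1.47 ± 0.45 in liver and -0.18 to 0.39 in the other tissues. In liver at 3 h Slc7a2 was at 5.12, 5.68, 5.95 and 6.69 in exposed and 3.60, 4.12, 4.84 and 5.01 in air rats, apart, although the liver comparison on its own made no call (adjusted p = 0.0679). Slc1a4 differed at 1 h (0.0317) and Slc43a1 at 3 h (0.0245).

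Without the arrays of foreign transcripts the 1 h differences of Slc7a2 (adjusted p = 0.0585) and Slc1a4 (0.116) were lost, and at 3 h 11 members were called in place of 7. The share of all genes called in that fit is not given here, so the 11 do not set the carriers apart. The 1 h difference of Slc1a4 was also lost without Rat712, Rat716, Rat719, Rat720, Rat721 or Rat726 (up to 0.214), that of Slc7a2 without Rat712, Rat719, Rat720 or Rat721 (up to 0.284), and the 3 h difference of Slc43a1 without Rat729, Rat732, Rat738 or Rat739 (up to 0.14).

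**Figure D5:**
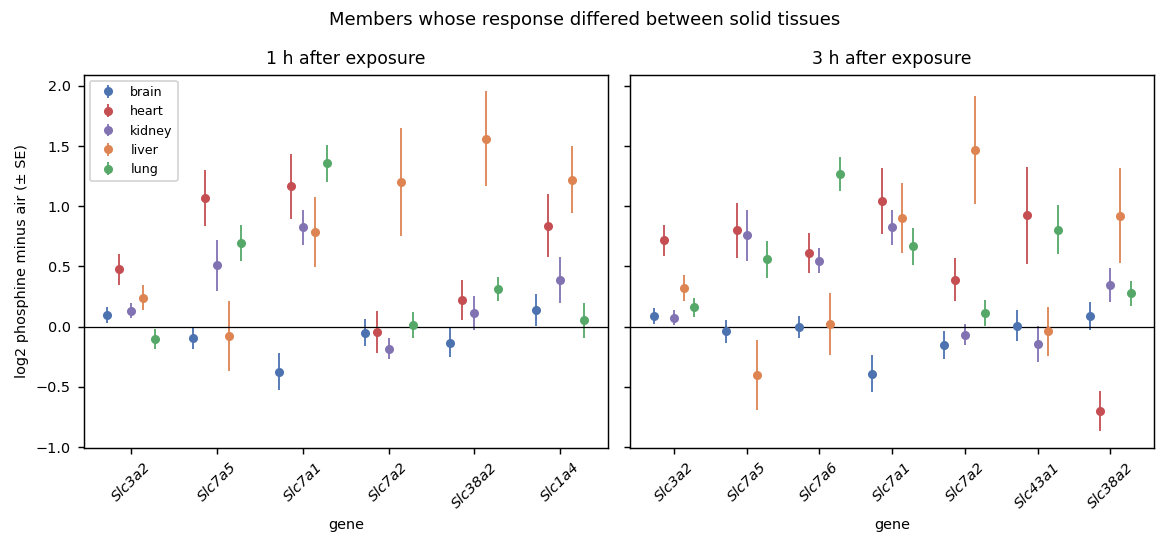
Log2 phosphine minus air ± SE in 5 solid tissues (colours) at 1 h (left) and 3 h (right) for the members whose difference was called unequal between tissues. Liver stands highest for Slc38a2 and Slc7a2, heart for Slc3a2, lung for Slc7a6 at 3 h, and brain lies below the other tissues for Slc7a1.

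Whether a response differed between the 4 times within a tissue was tested too. It called 5 members in lung (9.8%, all genes 6.38%) and 2 in kidney (3.92%, all genes 1.75%), and 0 in brain (0.0893% of all genes), heart (0.424%) and liver (0.476%). In lung Slc7a1 (adjusted p = 4.90e-04) had its largest difference at 1 h, and Slc7a6 (0.00124) and Slc7a7 (0.0155) had theirs at 3 h. Slc6a6 (0.012) in lung ran from 0.27 ± 0.15 at 1 h to -0.50 ± 0.15 at 3 h and 0.64 ± 0.18 at 6 h, and Slc7a10 (0.0334), a small neutral amino acid carrier, was -1.01 ± 0.23 at 6 h. The value of Slc7a10 was lost without Rat720, Rat761, Rat762 or Rat789 (up to 0.26). In kidney Slc7a1 (0.0101) had its differences of 0.82 and 0.83 at 1 and 3 h against -0.24 at 24 h, and Slc38a6 (0.0125) went from 0.55 at 1 h to -0.12 at 3 h.

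Other genes of amino acid supply were counted from lists, beside the share of all genes called in the same comparison. The lists were chosen with earlier results of these data known. Values of these genes are not given without the arrays of foreign transcripts. Among those arrays, the lung of exposed Rat716 at 1 h and the heart of exposed Rat729 at 3 h carried hepatocyte transcripts. Of the 23 measured amino acid response genes 4 were higher and 0 lower in kidney at 1 h and again at 3 h, with medians of 0.08 and 0.09 (17.4% higher each time, all genes 2.12% and 2.86%). At 3 h they were Atf4 (0.77 ± 0.09, adjusted p = 5.17e-06), Ddit3 (1.54 ± 0.14), the pseudokinase Trib3 (0.42 ± 0.11) and the glutathione-degrading enzyme Chac1 (0.76 ± 0.14), which is also on the glutathione list. In lung at 3 h 6 were higher and 1 lower (median 0.13, 26.1% higher against 5.84% of all genes), among them Atf4 (0.39 ± 0.08) and Trib3 (0.96 ± 0.24), and in heart 3 were higher at 1 h and 1 at 3 h (all genes 0.99% and 1.06%). In lung at 1 h 1 was higher (all genes 2.18%), in brain at 1 h 1 (all genes 0.149% called), and in blood at 3 h 2 were lower (all genes 6.6% called). None of the 23 was called in liver.

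Of 17 aminoacyl-tRNA synthetases, the enzymes that load amino acids onto tRNA, 6 were higher and 0 lower in lung at 3 h, from 0.24 (Aars1) to 0.46 (Hars1), a share of 35.3% against 5.84% of all genes. Of the same enzymes 1 was higher in lung at 1 h and in kidney at 1 and 3 h (5.88%, all genes 2.18%, 2.12% and 2.86%). In kidney at 6 h 2 were higher (11.8%, all genes 0.35% called), and in blood at 3 h 1 was lower (5.88%, all genes 6.6% called). Of 25 genes by which mTORC1 senses amino acids, 1 was higher and 3 lower in lung at 3 h and likewise in kidney at 3 h. Higher calls were 4% of the list against 5.84% of all genes in lung and 2.86% in kidney, and lower calls 12% against 5.76% and 3.53%. Sesn1, one of the sestrins, which restrain mTORC1, was higher in lung (0.81 ± 0.12) and lower in kidney (-0.62 ± 0.14). In heart at 3 h Flcn (-0.57 ± 0.12) and Fnip1 (-0.67 ± 0.12) were lower (8%, all genes 2.28%). In blood at 3 h 2 were lower (8%, all genes 6.6% called), and in brain at 3 h 1 was higher (4%, all genes 0.506% called). Of 12 glutathione genes 4 were higher and 0 lower in lung at 3 h (median 0.33, 33.3% against 5.84% of all genes), including Ggt1 (0.76 ± 0.20), which frees cysteine from extracellular glutathione, and Gsr (0.40 ± 0.11). In lung at 1 h and kidney at 3 h 1 was higher (8.33%, all genes 2.18% and 2.86%). In kidney at 1 h 1 was lower (8.33%, all genes 0.997%).

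Of 16 genes of arginine, urea and polyamine metabolism, which use the substrates of Slc7a1, 3 were higher and 0 lower in lung at 3 h (18.8% against 5.84% of all genes): the arginase Arg2 (0.82 ± 0.19), the endothelial nitric oxide synthase Nos3 (0.90 ± 0.17) and the ornithine decarboxylase Odc1 (0.73 ± 0.14). Azin1, an inhibitor of the antizyme that degrades Odc1, was higher in kidney at 1 h (0.68 ± 0.11) and 3 h (0.71 ± 0.11). It was the 1 gene of the list called there (6.25% each time, all genes 2.12% and 2.86% higher). In liver at 3 h 3 were higher, Asl (0.69 ± 0.13), Odc1 (0.64 ± 0.17) and Azin1 (0.77 ± 0.17). They were 18.8% of the list, where 3.85% of all genes were called, 267 genes higher and 251 lower. In lung at 1 h, liver at 6 h, brain at 3 h and blood at 3 h 1 gene of the list was higher (6.25%), and none was lower in any comparison. All genes had 5.8%, 0.223%, 0.506% and 6.6% called in these 4. Of 11 enzymes of glutamate, glutamine and GABA, the glutamine synthetase Glul was higher in lung at 3 h (1.41 ± 0.14, adjusted p = 8.52e-07) and in heart at 3 h (0.52 ± 0.13), and the aspartate aminotransferase Got1 in liver at 1, 3 and 6 h (0.81 ± 0.18, 1.52 ± 0.18 and 1.46 ± 0.22) and in kidney at 3 and 6 h (0.23 ± 0.07 and 0.38 ± 0.08). Lower were Gad1 in heart at 3 h (-0.51 ± 0.14) and Gpt in kidney at 1 h (-0.67 ± 0.16). The hearts at 3 h included that of exposed Rat729, which carried hepatocyte transcripts. Each of these calls was 1 of 11 in its direction (9.09%). At 3 h higher calls were 5.84% of all genes in lung, 1.06% in heart and 2.86% in kidney. Lower calls were 2.28% in heart at 3 h and 0.997% in kidney at 1 h. All genes called were 0.335%, 3.85% and 0.223% in liver at 1, 3 and 6 h and 0.35% in kidney at 6 h.

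Of 17 amino acid carriers of other families, 4 were higher and 0 lower in liver at 3 h (23.5%). That comparison had no call among the 51 and 3.85% of all genes called, 267 genes higher and 251 lower. The 4 carriers were the aromatic amino acid carrier Slc16a10 (1.12 ± 0.22) and the mitochondrial carriers Slc25a15 for ornithine (1.07 ± 0.13), Slc25a22 for glutamate (0.97 ± 0.15) and Slc25a29 for basic amino acids (1.42 ± 0.19). Slc25a15 and Slc25a29 were higher in liver at 1 h as well (11.8%, all genes 0.335% called). Slc25a15 was 1.99 ± 0.28 higher in lung at 1 h (adjusted p = 4.60e-05) and 1.03 ± 0.28 at 3 h (5.88% each, all genes 2.18% and 5.84%). The lungs at 1 h included that of exposed Rat716, which carried hepatocyte transcripts. Slc25a15 was higher in liver at 6 h too, and Slc25a13 in brain at 3 h (5.88% each, all genes 0.223% and 0.506% called). Lower were Slc15a4 in lung at 1 h (-0.37 ± 0.11) and Slc15a3 in kidney (-0.62 ± 0.18) and blood (-1.66 ± 0.45) at 3 h. Each was 5.88% of the list, where 5.8%, 6.39% and 6.6% of all genes were called.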

How the data were processed

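RNA of frozen tissues and of blood was isolated with RNeasy kits, amplified and biotinylated with 3' IVT reagents and hybridised to single-colour Affymetrix arrays, per the labels' protocols. The authors deposited a log2 signal for each probe set. Per the submitters' processing notes RMA and Partek were used, with versions and the extent of joint normalization not given in the sources used here. The signals span 1.74 to 14.13 over 31139 probe sets, with array medians of 4.16 to 4.64. The number of arrays limits the precision.

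Probe sets were named by the platform annotation: 19063 list 1 gene, 572 several, 11407 none and 97 are controls. Those of 1 gene gave 13438 genes, each read by its brightest probe set. All arrays of a tissue entered 1 limma fit (version 3.58.1, under R 4.3.3, with the package data.table at 1.17.8) that gave each combination of exposure and time its own mean. The difference of phosphine and air at a time was tested with eBayes. Differences between times, and between solid tissues in a joint fit of 5 tissues, were tested with limma's moderated F. Rats are the replicates, and no 2 arrays held identical values. The fit was tested on simulated data. Figures and summaries were made with python 3.11.15, pandas 2.3.3, numpy 2.4.6 and matplotlib 3.10.9.

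Members called at least once were named. Those called in 2 or more comparisons, and the one with the lowest adjusted p of each comparison with calls, have their values given in every rat. Values of other members named for a near miss or a difference between tissues were picked after their values were seen. The members, lists and alternatives were chosen with earlier results of these data known. Leaving out rats or arrays of foreign transcripts in the tests of differences was added after the data were seen, except leaving out rats for the tests between times. Alternatives were quantile normalization, median centring, the mean of probe sets, omission of dim genes (lowest 40 percent), a trend and robust fit, only the 2 groups, air of all times pooled, arrays with another organ's transcripts left out, each rat left out and the rat as a block. The rats pair the solid tissues, and the correlation within a rat was 0.027 in the joint fit. The 2 blood samples at 24 h have no air sample and were not tested.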

Additional observations from a re-analysis of the deposited data

Results flagged for a closer look

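The response to phosphine differed between the 5 solid tissues for several carriers, by limma's moderated F with adjusted p as follows. At 1 h these were Slc7a1 (2.77e-04), Slc38a2 (3.60e-04), Slc7a2 (0.0167), Slc3a2 (0.017), Slc7a5 (0.0204) and Slc1a4 (0.0317). At 3 h they were Slc7a6 (5.49e-05), Slc3a2 (1.11e-04), Slc7a2 (6.20e-04), Slc38a2 (0.00107), Slc7a1 (0.00148), Slc7a5 (0.00318) and Slc43a1 (0.0245), and at 6 h Slc3a2 (0.00568). Over all genes 3.27%, 14.4% and 1.35% were called at these times, and the 7 of 51 members at 3 h (13.7%) are near that share.

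The response differed between times in lung for Slc7a1 (adjusted p = 4.90e-04), Slc7a6 (0.00124), Slc6a6 (0.012), Slc7a7 (0.0155) and Slc7a10 (0.0334), and in kidney for Slc7a1 (0.0101) and Slc38a6 (0.0125), where all genes had 6.38% and 1.75%.

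In 2 of the 55 groups of 4 rats behind the calls 1 rat stood far from the others, where chance gives about 1 in 20. For Slc38a6 in kidney at 1 h exposed Rat712 was at 5.98 and the next rat at 5.76. For Slc7a7 in lung at 3 h air Rat738 was at 6.53 and the next rat at 6.29, still below every exposed lung.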

How the results depend on the processing

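None of the 28 calls changed sign in 440 alternative values, and 7 kept their adjusted p under 0.05 in all of them: Slc7a6 in lung and kidney at 3 h, Slc7a1 in lung at 1 and 3 h and kidney at 3 h, Slc43a1 in lung at 3 h and Slc38a1 in kidney at 3 h. Fitting only the 2 groups compared, which leaves fewer arrays for the spread, lost 15 calls. It gave 0 members in heart at 1 and 3 h, kidney at 1 h and liver at 6 h, and 1 in lung at 1 h and liver at 3 h. Pooling air of all times gave 5 members in heart at 1 and 6 h, 1 in heart at 24 h, 10 in kidney at 3 h, 5 in kidney at 6 h, 2, 3 and 4 in liver at 1, 3 and 6 h, 10 in lung at 1 h and 8 in lung at 6 h. Leaving out arrays with foreign transcripts gave 0, 3 and 1 in heart at 1, 3 and 6 h. Median centring gave 1 in liver at 1 and 3 h and 0 at 6 h, quantile normalization 1 in liver at 1 and 3 h. Without dim genes 3 were called in kidney at 3 h and 1 in liver at 1 and 3 h and lung at 6 h. The trend and robust fit gave 4 in heart at 1 h and 1 in liver at 1 h, and the mean of probe sets 1 in heart at 24 h. The cause of these moves was not tested, beyond the smaller sets fitted. Shares of all genes called under these alternatives, or with 1 rat left out, are not given here. The counts therefore do not set the members apart.

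With 1 rat left out the counts ran from 0 to 4 in heart at 1 h, 1 to 6 in heart at 3 h, 2 to 4 in kidney at 1 h, 3 to 6 in kidney at 3 h, 0 to 3 in liver at 3 h, 0 to 1 in liver at 6 h, 2 to 4 in lung at 1 h, 6 to 9 in lung at 3 h and 0 to 1 in lung at 6 h, and were 0 elsewhere. Counts moved by over 1.5 times in heart at 1 h without Rat710 (4), Rat712, Rat719 or Rat721 (0) and Rat716, Rat720 or Rat726 (1), and in heart at 3 h without Rat729 (3), Rat730, Rat731 or Rat738 (1) and Rat732, Rat733 or Rat739 (2). They did so in kidney at 3 h without Rat729, Rat731, Rat738 or Rat739 (3), in liver at 3 h without Rat728 (3), in liver at 6 h without Rat760, Rat761, Rat762, Rat763 or Rat789 (0) and in lung at 6 h without Rat758 (1).

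The number of members whose response differed between times was 1 in liver with the trend and robust fit, and with 1 rat left out 0 to 3 in heart, 2 to 3 in kidney, 0 to 1 in liver and 4 to 6 in lung. The 3 in heart came without Rat728, 1 in heart without Rat710, Rat727 or Rat729, and the 1 in liver without Rat741. Between tissues, the paired fit with the rat as replicate block called 6, 8, 2 and 0 members at 1, 3, 6 and 24 h, adding Slc38a10 at 3 h (adjusted p = 0.0439) and Slc7a5 at 6 h (0.0495). It changed no other call. Median centring gave 2 at 6 h, and leaving out arrays with foreign transcripts 11 at 3 h and 3 at 6 h. With 1 rat left out the counts ran from 2 to 7 at 1 h, 5 to 12 at 3 h, 0 to 2 at 6 h and 0 to 2 at 24 h. They moved by over 1.5 times at 1 h without Rat712, Rat719 or Rat721 (3) or Rat720 (2), at 3 h without Rat728 (12), at 6 h without Rat758 (2), Rat762 or Rat763 (0), and at 24 h without Rat742 (1), Rat748 or Rat749 (2). Shares of all genes for the counts in this paragraph are not given here, so they do not set the members apart.

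Groups of 2 to 5 rats limit the precision, and the 6 h comparisons rest on 2 air rats or 1 air blood sample.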

Other observations

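At 24 h blood was read in 2 exposed rats, Rat741 and Rat742, with no air sample. Slc7a1 was at 5.38 and 5.57, Slc7a5 at 8.57 and 8.52, Slc7a6 at 6.33 and 5.30 and Slc3a2 at 11.01 and 10.70 log2 signal. The blood-rich carriers Slc38a5 (9.99 and 10.29) and Slc43a1 (10.55 and 10.36) lay within the range of air blood at the earlier times, 9.15 to 10.60 and 8.83 to 10.62.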
